A study of Mus musculus with 12 samples.

Results

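The interleukin-1 family was followed through 9 of its genes in CD115+ cells, labelled as monocytes, of mice with an intact liver and after liver resection. The 9 genes were taken by symbol from 52553 features, of which 20135 passed a filter on low counts, and all 9 members were among those that passed. They comprised the agonists Il1a, Il1b, Il36g and Il18, the antagonists and decoys Il1rn, Il1r2 and Il18bp, and the chains of the signalling receptor Il1r1 and Il1rap.

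RNA-seq was performed on mononuclear cells of male C57BL/6 mice that had been sorted magnetically for CD115, the product of Csf1r and receptor for the growth factor M-CSF. The control groups, spleen and peripheral blood, are labelled as intact in both spleen and liver, and the labels name no sham operation. The resected groups, again spleen and blood, were collected 24 h after a 70% hepatectomy from animals that kept their spleen. Each of the 4 groups had 3 libraries, and each library held cells pooled over 5 mice, so the spread between libraries is a spread between pooled samples and single animals cannot be seen.

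Interleukin-1α (Il1a) and interleukin-1β (Il1b) are early inflammatory cytokines that bind the same receptor, Il1r1, which signals only after it has recruited the accessory chain Il1rap. The system carries its own brakes. Il1rn encodes the receptor antagonist, which occupies Il1r1 without signalling, Il1r2 encodes a receptor without a signalling domain that acts as a decoy, and Il18bp encodes a soluble protein that captures interleukin-18. Il36g encodes an interleukin-36 cytokine known mainly from epithelia and myeloid cells. Interleukin-1β and interleukin-18 are made as inactive precursors and are cut by caspase-1 in the inflammasome, so a transcript level is not a level of active cytokine.

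The libraries held from 36990033 to 46401368 estimated counts. Csf1r was present in every library at 209 to 1192 CPM (counts scaled to library size with TMM factors), and no library lacked it. Transcripts of other cells were present as well. The 6 monocyte markers summed to 1222 to 1750 CPM in intact spleen and 1552 to 3037 CPM in resected spleen. In blood they summed to 690 to 1710 CPM in intact and 1326 to 1613 CPM in resected libraries. The 5 B-cell markers summed to 3910 to 4447, 1071 to 3315, 485 to 2164 and 664 to 1643 CPM in the same order of groups. The summed level of 10 neutrophil markers was 52.0 to 144 CPM in intact blood, 1232 to 5685 CPM in resected blood, 399 to 897 CPM in intact spleen and 1897 to 5564 CPM in resected spleen, with the highest sum in library 3 of each resected group. Most of the sum in those libraries came from Ngp, Mmp8 and Retnlg, and not every marker was highest there (in resected blood Ltf had 153, 137 and 142 CPM and Camp 35.2, 22.05 and 16.1 CPM). The summed level of 6 markers of peritoneal macrophages was 286 to 898 CPM in intact blood and 4132 to 4741 CPM in resected blood, against 7.87 to 18.6 CPM in the spleen. Of these, the defining gene Gata6 was at or near 0 in the spleen (at most 0.163 CPM). In blood Gata6 was at 2.85 to 5.86 CPM in intact and 17.7 to 23.7 CPM in resected libraries. Most of the sum in blood came from Alox15 and Prg4, and Timd4 had means of 28.3 CPM in intact and 35.9 CPM in resected blood. Haemoglobin transcripts made up 13.2% to 34.2% of the counts in blood and 0.0814% to 3.47% in the spleen. The third library of intact blood stood apart. Its T-cell markers summed to 1061 CPM against 444 to 484 CPM in the other intact blood libraries, although Cd8a was lower there (12.9 CPM against 65.3 and 70.5 CPM), and its sums were lower for monocyte markers (690 CPM against 1477 and 1710 CPM), B-cell markers (485 CPM against 1504 and 2164 CPM) and NK-cell markers (141 CPM against 240 and 325 CPM).

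Il1a (chr2:129299610-129309972) and Il1b (chr2:129364570-129371139) lie on the minus strand of chromosome 2 in the mouse genome GRCm38, and Il36g (chr2:24186476-24193568, listed there as Il1f9) and Il1rn (chr2:24336853-24351494) lie on its plus strand. Il1r2 (chr1:40074079-40125231) and Il1r1 (chr1:40225080-40317257) stand in line on the plus strand of chromosome 1. Il18 is on chromosome 9, Il18bp on chromosome 7 and Il1rap on chromosome 16. The 250 bases before the transcription start are shown for Il1a and Il1b, which bind the same receptor and had opposite signs in the spleen, for the antagonist Il1rn, and for Il18, the only member that was not called after resection in blood. Sequences are from RefSeq on GRCm38.p6, 5′ to 3′ on the strand of the gene, at chr2:129309973-129310222 for Il1a, chr2:129371140-129371389 for Il1b, chr2:24345121-24345370 for Il1rn (the most downstream of its 3 windows) and chr9:50554450-50554699 for Il18. Capitals mark the letters of a searched motif.
Il1a: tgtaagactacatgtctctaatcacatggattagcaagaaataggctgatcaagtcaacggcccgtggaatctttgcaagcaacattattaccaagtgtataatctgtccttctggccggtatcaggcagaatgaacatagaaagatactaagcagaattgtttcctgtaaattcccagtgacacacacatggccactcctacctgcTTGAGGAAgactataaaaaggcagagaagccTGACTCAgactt
Il1b: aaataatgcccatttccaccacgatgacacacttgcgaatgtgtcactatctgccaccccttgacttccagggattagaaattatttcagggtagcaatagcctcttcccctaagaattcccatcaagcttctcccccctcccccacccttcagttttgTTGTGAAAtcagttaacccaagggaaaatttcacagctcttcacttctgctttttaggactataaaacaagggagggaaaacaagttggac
Il1rn: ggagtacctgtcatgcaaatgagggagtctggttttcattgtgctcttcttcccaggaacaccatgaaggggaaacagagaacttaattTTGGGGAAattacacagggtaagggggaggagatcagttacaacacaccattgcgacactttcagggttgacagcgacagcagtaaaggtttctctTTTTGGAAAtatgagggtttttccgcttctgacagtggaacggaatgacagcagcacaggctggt
Il18: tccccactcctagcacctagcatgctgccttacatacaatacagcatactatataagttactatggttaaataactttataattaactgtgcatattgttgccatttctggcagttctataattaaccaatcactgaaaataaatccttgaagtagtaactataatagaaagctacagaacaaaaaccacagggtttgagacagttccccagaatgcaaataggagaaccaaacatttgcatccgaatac

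The motifs searched on both strands were AP-1 (TGANTCA), C/EBP (TTNCNNAA), PU.1 (GAGGAA), GAS (TTCNNNGAA), and the NF-kB and ISRE motifs. Positions were counted from the base just before the start, to the first base of the match. The window of Il1a held an AP-1 match that began 12 bases before the start, and overlapping C/EBP and PU.1 matches at 43 and 41 bases before it. The window of Il1b held a single C/EBP match, at 91 bases. The printed window of Il1rn, which overlaps another of its windows, held only C/EBP matches, and that of Il18 held none of the 6 motifs. Over the 12 windows of the 9 members, C/EBP letters were found in 5 members, AP-1 in 2 (Il1a and, in a window further upstream, Il1rn), PU.1 in 2, GAS in 2, NF-kB in 1 (Il1r1) and ISRE in 0. A member was counted for a match in any of its windows, and Il1rn and Il1r1 had several. The shares that follow are per single window, so the units differ. Among all 32851 windows of this length, 36.8% held the C/EBP letters, 23.3% PU.1, 7.25% NF-kB, 7.02% GAS, 6.75% AP-1 and 2.98% ISRE. These are matches of letters in a short window and carry no measurement of binding.

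The first comparison asked how resection changed these genes in CD115+ cells of the blood. Of the 9 members, 8 were called higher and 0 lower, where a call needed an adjusted p-value under 0.05 and a log2 fold change beyond 1 in edgeR's quasi-likelihood test, and Il18 was the exception. Among all features tested, 7.80% were called higher and 6.11% lower. The median log2 fold change of the members was 4.76, against -0.10 over all features. The libraries of resected and intact blood did not overlap for the same 8 members, and 38.4% of all features were without overlap in either direction. When only the blood groups were fitted, 4 members were called, without Il36g, Il18bp, Il1r1 and Il1rap. In bulk RNA of a sorted fraction, more RNA per cell and more cells of the type that carries it cannot be told apart.

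Il1a had the largest change of the 9 members. It was at 3.00, 2.21 and 3.98 CPM in the 3 libraries of intact blood and at 777, 1860.4 and 1454 CPM after resection. Every resected library was thus far above every intact one, and the ratio of the means was 445. The log2 fold change was 8.80 (SE 0.89, adjusted p = 0.000623 in edgeR). Il1b was already present in intact blood, at 71.5, 124 and 20.9 CPM, and was measured at 451, 1407 and 1480.0 CPM after resection, 15.4 times higher by the means (log2 fold change 3.95, SE 0.69, adjusted p = 0.00457). Its lowest library was the third of the intact group, the one with the most T-cell transcripts. A non-coding gene lies opposite each cytokine, Gm14023 opposite Il1a and Il1bos opposite Il1b. Gm14023 went from 0.154 to 0.306 CPM in intact blood to 14.2 to 20.4 CPM after resection, and Il1bos from 0.0437 to 0.248 CPM to 0.763 to 4.19 CPM. How the counting used strand was not given in the sources used here, so reads of these genes and of their partners cannot be told apart.

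Il36g was at 2.64, 9.63 and 1.20 CPM in intact blood and at 20.7, 104 and 241 CPM after resection (log2 fold change 4.76, SE 1.03, adjusted p = 0.0110). All resected libraries were above all intact ones, although the resected libraries themselves spread widely. Il18, which is matured like interleukin-1β, was the agonist without a call, with 10.1, 9.84 and 5.16 CPM in intact blood and 11.1, 10.02 and 10.6 CPM after resection, ranges that overlapped. Its log2 fold change was 0.34 (SE 0.31, adjusted p = 0.465).

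All 3 antagonists and decoys were called higher as well. Il1r2, the decoy receptor, had 9.08, 5.68 and 1.66 CPM in intact blood and 117, 134 and 981 CPM after resection (log2 fold change 6.23, SE 1.40, adjusted p = 0.0129), and Il1rn had 5.59, 6.58 and 3.71 CPM and then 39.5, 130.1 and 563 CPM (log2 fold change 5.53, SE 1.08, adjusted p = 0.00703). In both genes the third resected library was several times above the others. Without that library the log2 fold changes were 4.52 for Il1r2 and 4.03 for Il1rn, and both were still called. Il18bp changed least, from 7.73, 7.45 and 7.65 CPM to 13.9, 14.7 and 26.1 CPM (log2 fold change 1.26, SE 0.26, adjusted p = 0.00930). It lost its call without the third resected library, when its log2 fold change was 0.94.

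Il1r1, the signalling receptor, was barely counted in intact blood, at 0.248, 0.103 and 0.459 CPM, and was at 1.65, 1.80 and 20.5 CPM after resection (log2 fold change 4.86, SE 1.07, adjusted p = 0.0120). The value of the third library carried most of that mean, and without it the log2 fold change was 2.70 and still called. Its partner Il1rap, which it shares with the interleukin-33 and interleukin-36 receptors, had 19.2, 20.4 and 11.4 CPM and then 40.5, 52.0 and 189.9 CPM (log2 fold change 2.47, SE 0.71, adjusted p = 0.0343). Il1rap lost its call without the third resected library, at a log2 fold change of 1.46, and also when any intact blood library or the first intact spleen library was left out. With library 3 of both blood groups left out, 5 members were called in place of 8, and Il1r2, Il18bp and Il1rap were not.

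**Figure D1:**
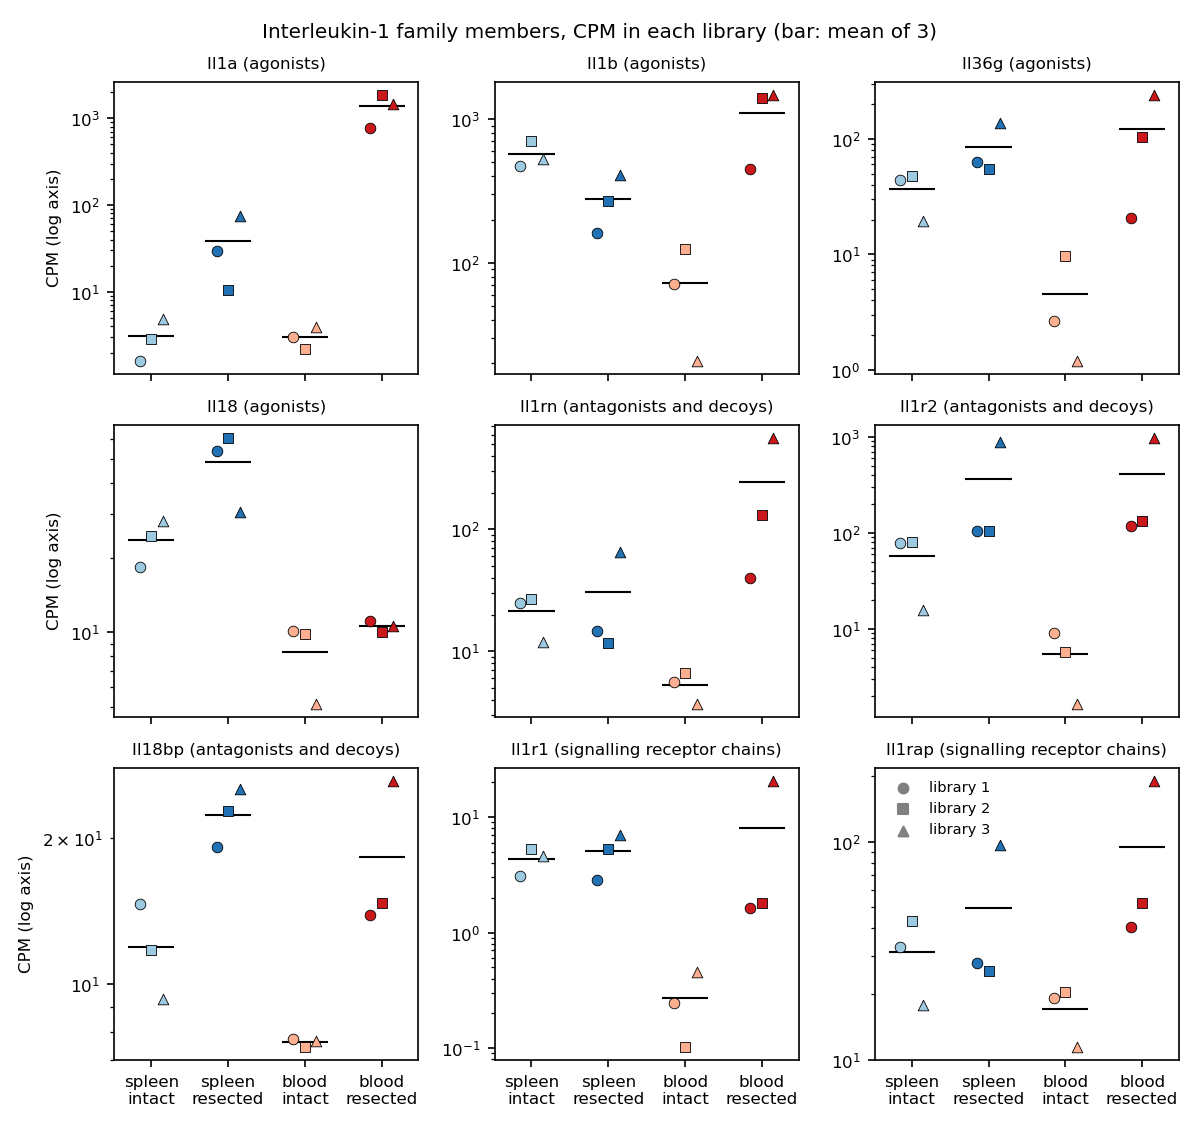
CPM of each member on a log axis in the 4 groups, with 1 point per library (circle, square and triangle for library 1, 2 and 3) and a bar at the mean of 3. The red points of resected blood lie above those of intact blood in every panel but Il18, and the triangles of library 3 in both resected groups lie far above the circles and squares for Il1r2, Il1rap and Il1rn.

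The same question was asked of CD115+ cells of the spleen, where fewer members were called. Of 9 members, 1 was called higher, Il1a, and 0 lower, against 0.780% of all features called higher and 0.596% lower. The libraries did not overlap for 6 of the 9 members, 5 of them higher and Il1b lower after resection, and 35.1% of all features were without overlap. The median log2 fold change of the members was 0.90, against 0.05 over all features.

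Il1a in the spleen went from 1.62, 2.86 and 4.85 CPM to 29.7, 10.5 and 74.3 CPM, so all resected libraries were above all intact ones (log2 fold change 3.61, SE 0.71, adjusted p = 0.0396). This call was close to the threshold. It held without the second resected spleen library and without the third intact blood library, and was lost when any of the other 10 was left out, with log2 fold changes from 2.69 to 4.08 over all 12. Intact spleen held Il1b at 475, 707 and 530.0 CPM, resected spleen at 162, 270 and 407 CPM. Each resected library was below each intact one, but the log2 fold change of -1.03 (SE 0.62) had an adjusted p of 0.382 in edgeR and was not called.

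Intact spleen held Il18 at 18.4, 24.4 and 27.97 CPM and resected spleen at 53.9, 60.7 and 30.4 CPM, and its inhibitor Il18bp was at 14.6, 11.8 and 9.34 CPM and then at 19.2, 22.7 and 25.1 CPM. Neither pair of groups overlapped, and neither was called (log2 fold change 1.04, SE 0.31, adjusted p = 0.102 for Il18, and 0.90, SE 0.26, adjusted p = 0.0955 for Il18bp). The other agonist, Il36g, was at 43.7, 47.6 and 19.3 CPM and then at 62.4, 55.3 and 137 CPM, again without overlap and without a call (log2 fold change 1.20, SE 0.88, adjusted p = 0.477).

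Among the remaining members of the spleen the third resected library was the highest in each case. Il1r2 had 77.8, 80.0 and 15.6 CPM in intact and 105, 104 and 897 CPM in resected spleen (log2 fold change 2.67, SE 1.18, adjusted p = 0.233), and without the third resected library the log2 fold change was 0.85. Il1rn was at 24.9, 27.0 and 11.96 CPM and then at 14.6, 11.7 and 64.7 CPM (0.51, SE 0.89, adjusted p = 0.798), with the first resected library within the intact range and the second just under it. Il1r1 had 3.09, 5.26 and 4.58 CPM against 2.83, 5.26 and 7.06 CPM, and Il1rap had 33.0, 43.0 and 17.8 CPM against 27.7, 25.5 and 96.1 CPM. The direction of Il1rn, Il1r1 and Il1rap turned when that library was left out, to log2 fold changes of -0.69, -0.09 and -0.24.

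**Figure D2:**
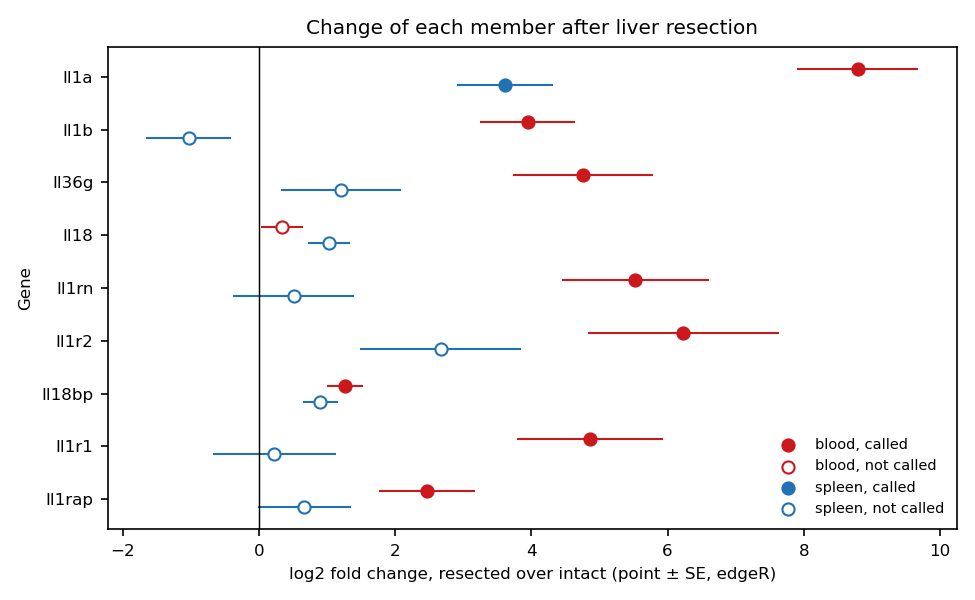
Log2 fold change of each member, resected over intact, with its SE (edgeR), in blood (red) and spleen (blue), filled where called. In blood every member except Il18 is filled, whereas in the spleen only Il1a is, and Il1b at -1.03 is the only member to the left of 0.

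Both resection effects were then compared by a test of their difference, blood minus spleen. No member passed (0 of 9 called, with 0.219% of all features called higher and 0.0646% lower). An unadjusted p under 0.05 was found for 5 members, all with a larger change in blood, and for 3484 of all 20135 features. The median difference of the members was 3.56, against -0.12 over all features. The differences on the log2 scale were 5.18 for Il1a (SE 0.96, adjusted p = 0.0639 in edgeR), 4.98 for Il1b (SE 0.92, adjusted p = 0.0639), 5.02 for Il1rn (SE 1.33, adjusted p = 0.146), 4.64 for Il1r1 (SE 1.35, adjusted p = 0.166) and 3.56 for Il36g (SE 1.28, adjusted p = 0.218). DESeq2 called these 5 members, with 1167 of 32952 features called. A stricter count filter called Il1a and Il1b (99 of 13564 features called). The fit without the third resected spleen library called Il1a (93 of 21042 features called). Il18 was the only member with a difference below 0, at -0.70 (SE 0.43, adjusted p = 0.431).

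In intact mice Il1b, Il18 and Il1r1 were lower in blood than in the spleen. All 9 log2 fold changes of blood over spleen were below 0, with a median of -2.01 against -0.02 over all features, although that of Il1a (-0.02) turned above 0 with other scalings. The calls were 3 lower (Il1b, Il18 and Il1r1) and 0 higher, with 3.49% of all features called lower and 3.86% higher. Il1b was 7.91 times higher in the spleen by the means (log2 fold change -2.98, SE 0.66, adjusted p = 0.0240), Il18 2.82 times (-1.50, SE 0.31, adjusted p = 0.0186) and Il1r1 16.0 times (-3.97, SE 1.03, adjusted p = 0.0408). Il1a was low in both places, with means over 3 libraries of 3.06 ± 0.885 CPM (SD) in blood and 3.11 ± 1.63 CPM in the spleen. Calls here depended on single libraries, since leaving out the second or the third intact spleen library or the first intact blood library left 0 calls, leaving out the first intact spleen library left Il18 only, and Il1r1 was also lost without the second or the third intact blood library or any resected spleen library. Markers of other cells differed as well. Red pulp macrophage markers were called lower in intact blood for 5 of 5 genes (median log2 fold change -5.71), neutrophil markers for 4 of 10 (-2.57) and dendritic markers for 3 of 6 (-1.97), and peritoneal macrophage markers were called higher for 6 of 6 (5.40) and T-cell markers for 4 of 5 (2.60). Erythroid markers were called higher for 5 of 5 genes (7.29) and platelet markers for 4 of 4 (4.04). Monocyte markers had 1 of 6 called higher, and basophil, mast cell and eosinophil markers 1 of 7 lower. The part of these cells in the differences of the members was not tested.

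After resection Il1a was higher in blood and Il18 higher in the spleen, and the median of the 9 log2 fold changes was 0.66 against -0.14 over all features. Il1a was 35.8 times higher in blood by the means (log2 fold change 5.16, SE 0.75, adjusted p = 0.00230) and Il18 4.57 times higher in the spleen (-2.19, SE 0.32, adjusted p = 0.00227), and these were the only calls, 1 higher and 1 lower, with 6.28% of all features called higher and 6.87% lower. Il1rn (log2 fold change 3.01, SE 0.95, adjusted p = 0.0516) and Il1b (1.99, SE 0.64, adjusted p = 0.0544) fell just short of the threshold. Both were called by DESeq2 (3729 of 32952 features called) and with RLE factors (2562 of 20135). Both were also called with a stricter count filter (1985 of 13564) and without haemoglobin genes (2545 of 20266). Neither was called without the low-count filter, with a replicate block, with entries as deposited or in the 2-group fit. Il1r2 had a mean of 411 CPM in resected blood and 368 CPM in resected spleen (log2 fold change 0.16), each resting on a single high library. Peritoneal macrophage markers were called higher in resected blood than in resected spleen for 6 of 6 genes (median log2 fold change 7.47). So were erythroid markers for 5 of 5 (4.62) and platelet markers for 4 of 4 (4.28). T-cell markers were called higher for 3 of 5 (1.82) and NK-cell markers for 1 of 5 (1.73). Red pulp macrophage markers were called lower for 4 of 5 (-3.02), neutrophil markers for 2 of 10 (-0.26) and dendritic markers for 2 of 6 (-0.59). Monocyte markers had 1 of 6 called in each direction. The part of these cells in the differences of Il1a and Il18 was not tested.

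Levels of different genes were compared per kilobase of exon. In intact spleen and intact blood Il1b ranked first among the members (299 ± 63.5 and 37.8 ± 27.0 CPM per kb, SD, n = 3). In resected blood Il1a ranked first with 691 ± 277 CPM per kb and Il1b followed with 583 ± 301, values that overlapped between libraries. In resected spleen Il1r2 came first with 193 ± 240 CPM per kb before Il1b with 147 ± 64.4, but only through library 3. Il1r1 ranked last in every group, at 0.677 ± 0.17 in intact spleen, 0.793 ± 0.33 in resected spleen, 0.0424 ± 0.028 in intact blood and 1.26 ± 1.71 CPM per kb in resected blood.

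Across the groups, Il1b was highest in resected blood (mean 1112 CPM), then in intact spleen (571), resected spleen (280) and intact blood (72.1), and only the ranges of resected blood and intact spleen overlapped among neighbours in that order. Il1a had the order resected blood (1364 CPM), resected spleen (38.1), intact spleen (3.11) and intact blood (3.06), the last pair overlapping. For Il18 the order was resected spleen (48.3 CPM), intact spleen (23.6), resected blood (10.6) and intact blood (8.36), again with an overlap in the last pair only.

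The make-up of the agonist transcripts is given as a description, without a test. Of the summed CPM per kb of the 4 agonists, Il1b accounted for 84.6% to 87.3% in intact spleen and 58.6% to 79.7% in intact blood, and Il1a for 0.279% to 0.770% and 1.37% to 10.8%. In resected blood Il1a held 60.3%, 53.8% and 44.1% and Il1b 36.2%, 42.1% and 46.5%, so that Il1a was the larger share in libraries 1 and 2 and Il1b in library 3. In resected spleen Il1b was at 44.7% to 59.1%, Il18 was at 8.10% to 27.5%, Il36g at 14.0% to 22.9% and Il1a at 2.22% to 10.3%. The share of Il1a was higher in every resected library of the spleen than in every intact one, and the same was true in blood.

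**Figure D3:**
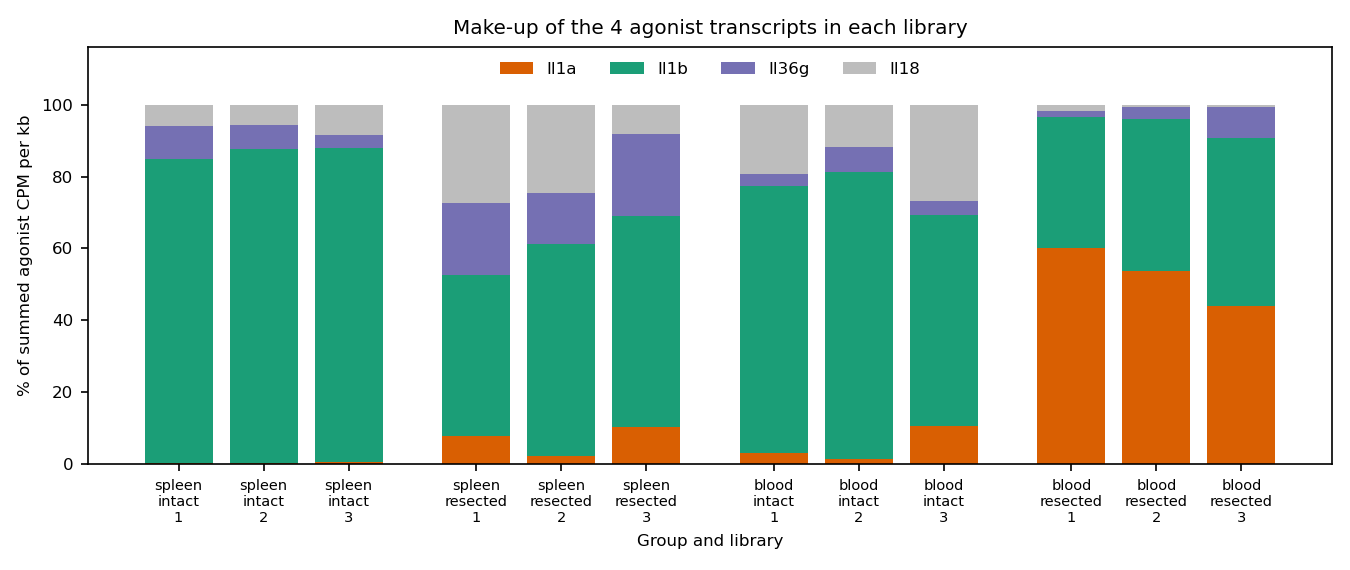
Share of each agonist in the summed CPM per kb of Il1a, Il1b, Il36g and Il18, 1 bar per library, adding to 100%. Il1b (green) fills 84.6% to 87.3% of the bars of intact spleen, whereas Il1a (orange) takes 44.1% to 60.3% in resected blood.

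The balance of brakes and agonists was followed as a log2 ratio within each library, which removes library size. There were 4 ratios in 2 tissues, 8 exact two-sided permutation tests in all, and with 3 against 3 libraries no such test can give a p below 0.1. The ratio of the antagonist to interleukin-1α (Il1rn to Il1a) was lower after resection in both tissues. In blood it went from 0.89, 1.55 and -0.10 to -4.29, -3.84 and -1.37, a difference of -3.95 (exact permutation p = 0.1, adjusted p = 0.267). In the spleen it went from 3.90, 3.22 and 1.29 to -1.02, 0.16 and -0.20, a difference of -3.16 (exact permutation p = 0.1, adjusted p = 0.267). In neither tissue did the groups overlap.

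The ratio of Il1rn to Il1b, by contrast, overlapped between resected and intact libraries in both tissues. Its mean was -3.46 ± 0.89 in intact and -2.78 ± 1.20 in resected blood (SD, n = 3, exact permutation p = 0.5, adjusted p = 0.571) and -4.81 ± 0.61 in intact and -3.55 ± 0.93 in resected spleen (exact permutation p = 0.2, adjusted p = 0.320). In blood the difference of 0.68 rested on the third resected library, and without it the value was -0.01. Il1rn was below Il1b in all 12 libraries, in counts and per kilobase.

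The decoy receptor exceeded the signalling receptor in all 12 libraries, in counts and per kilobase. The log2 ratio of Il1r2 to Il1r1 in blood went from 4.94, 5.24 and 1.75 to 6.11, 6.18 and 5.58 (difference 1.98, exact permutation p = 0.1, adjusted p = 0.267), with the third intact library far below the others, and without that library the difference was 0.86. In the spleen it went from 4.63, 3.91 and 1.76 to 5.19, 4.29 and 6.98 (difference 2.05, exact permutation p = 0.2, adjusted p = 0.320), and the groups overlapped. For Il18bp to Il18 the differences were 0.80 in blood (exact permutation p = 0.3, adjusted p = 0.400) and -0.08 in spleen (p = 1 in the same exact test), and all groups overlapped.

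By role, the mean log2 CPM of the 4 agonists was 2.27 to 3.68 in intact blood and 6.57 to 8.09 in resected blood, and that of the 3 antagonists and decoys was 1.88 to 2.88 and 5.33 to 7.93. In the spleen the agonists were at 4.82 to 5.30 and then at 5.80 to 6.73, and the antagonists and decoys at 3.60 to 4.93 and then at 4.92 to 6.83. Antagonists minus agonists changed by -0.55 in blood and by -0.002 in the spleen on this scale, and the intact and resected libraries overlapped in both tissues. With single libraries left out the change ranged from -1.01 (without the third resected library) to -0.16 (without the second) in blood, and in the spleen from -0.45 without the third intact library to 0.36 without the first, so that its sign turned. These means are a description and were not tested.

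**Figure D4:**
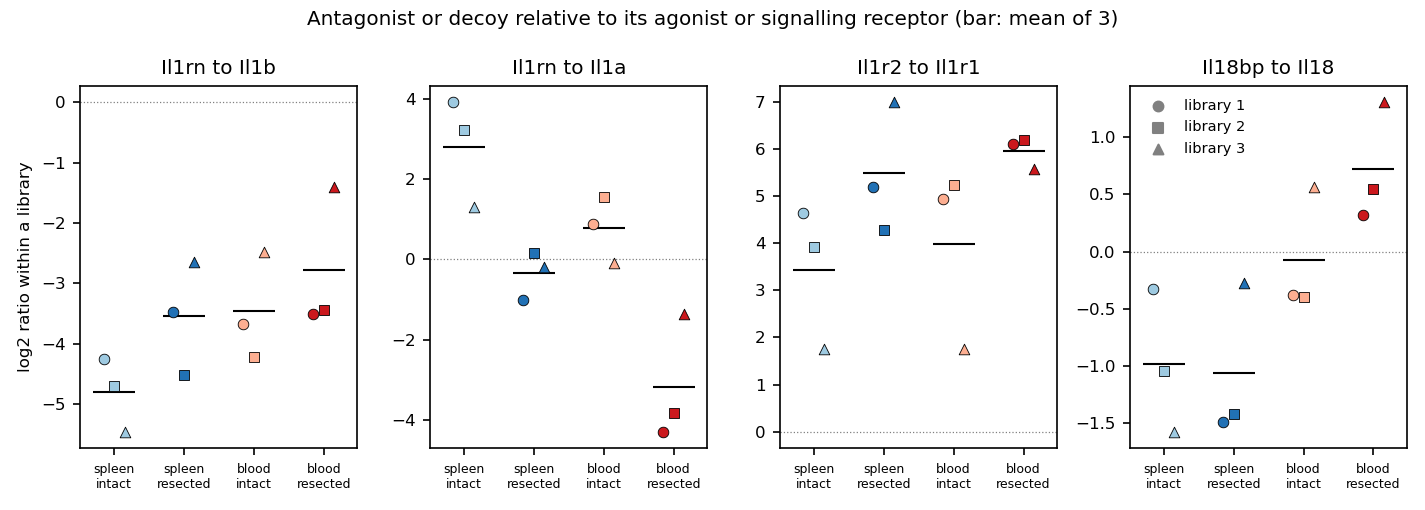
Log2 ratio of an antagonist or decoy to its agonist or signalling receptor within each library, in the 4 groups, with a bar at the mean of 3 and a dotted line at 0, where both transcripts are equal in scaled counts. In the spleen the ratio of Il1rn to Il1a lies between 1.29 and 3.90 in intact and between -1.02 and 0.16 in resected libraries, without overlap, whereas the other panels of the spleen overlap.

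Transcripts of other cells moved with resection too, and their levels are given beside those of the members. Il1r2 was at 897 CPM and 981 CPM in library 3 of resected spleen and blood, where the 10 neutrophil markers summed to 5564 and 5685 CPM, and at 104 to 134 CPM in the other resected libraries, where they summed to 1232 to 1913 CPM. All 10 neutrophil markers were called higher after resection in blood (Mmp8, a neutrophil collagenase, by a log2 fold change of 5.24, SE 1.25, adjusted p = 0.0166) and 2 of 10 in the spleen. Il1a was at 777, 1860.4 and 1454 CPM in libraries 1, 2 and 3 of resected blood, with marker sums of 1241, 1232 and 5685 CPM. In resected spleen it was at 29.7, 10.5 and 74.3 CPM, with sums of 1913, 1897 and 5564 CPM. Markers of peritoneal macrophages moved with resection in blood as well, 4 of 6 called higher, among them Alox15 (103 to 331 CPM, then 2042 to 2949 CPM). In the spleen 0 of these 6 were called higher. Red pulp macrophage markers were called higher in blood for 4 of 5 genes, with sums of 42.1 to 76.9 CPM and then 602 to 927 CPM, and in the spleen for 1 of 5. Nearly all of the sum in resected blood was Hmox1, which encodes haem oxygenase (565 to 801 CPM), while Spic was at 1.98 to 6.42 CPM and Vcam1 at 1.37 to 4.78 CPM. Of the monocyte markers, 2 of 6 were called lower in blood, Cx3cr1 (log2 fold change -2.20, SE 0.53, adjusted p = 0.0165) and Spn (-1.65, SE 0.35, adjusted p = 0.0105), and 0 in the spleen. The monocyte list was split in blood, where 3 of the 6 had a log2 fold change above 0. Among these was Csf1r, with 467, 363 and 209 CPM in intact and 601, 678 and 719 CPM in resected blood. T-cell markers were called lower in blood for 4 of 5 genes (median log2 fold change -2.34) and NK-cell markers for 0 of 5 (median -2.12). Of the NK-cell markers 4 were lower at an unadjusted p under 0.05, which 7233 of all 20135 features had in either direction. The part of these other cells in the changes of the members was not tested.

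**Figure D5:**
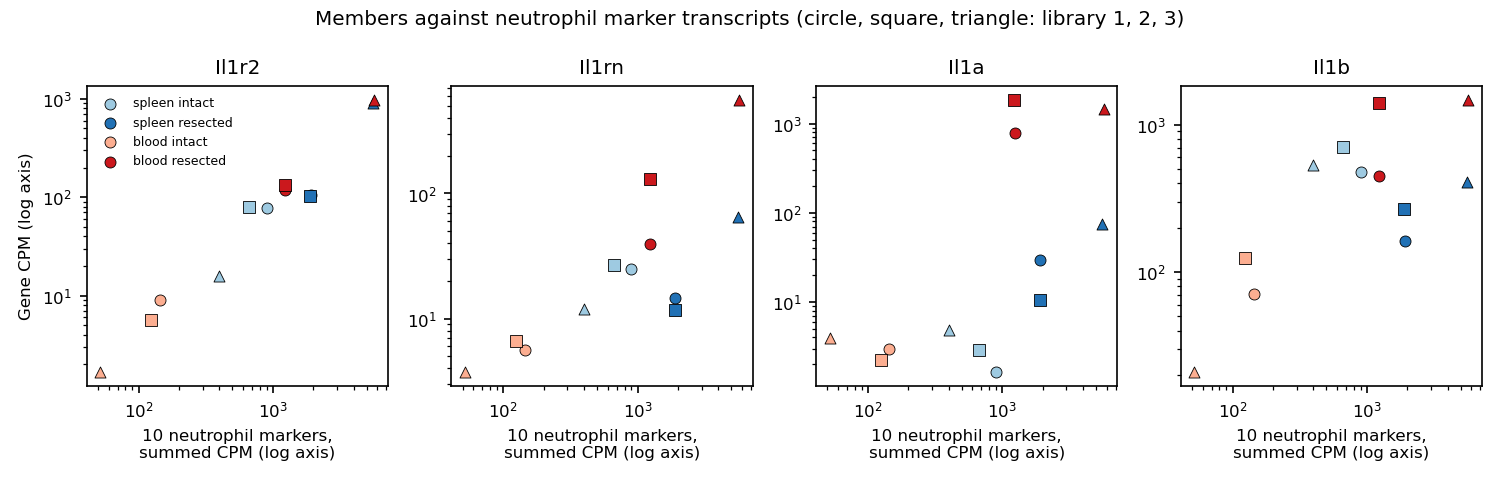
CPM of Il1r2, Il1rn, Il1a and Il1b against the summed CPM of 10 neutrophil markers, both on log axes, 1 point per library. For Il1r2 the triangles of both resected groups stand at the top right (897 and 981 CPM), and for Il1a resected blood lies above resected spleen (777 CPM and more against at most 74.3 CPM).

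The other ligands of the family had few or no counts. All 5 (Il33, Il36a, Il36b, Il36rn and Il1f10) failed the filter on low counts. Il36a, a further interleukin-36 agonist, had 0 counts in all 6 intact libraries and 3, 34 and 115 counts in resected blood, with 0, 0 and 3 in resected spleen. A count of 0 in intact blood allows up to 3 counts in a library, which is 0.0655 to 0.0826 CPM. Il33 had 4, 5 and 7 counts in intact and 6, 16 and 57 in resected blood. Il36b and Il36rn, the interleukin-36 antagonist, had at most 1 count in a library, and Il1f10 had 0 in all.

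Of the 7 other receptors of the family, 5 could be tested and 0 were called after resection in either tissue by edgeR. Among all features 7.80% were called higher and 6.11% lower in blood, and 0.780% and 0.596% in the spleen. Beside 7233 of all 20135 features in blood and 4182 in the spleen, 1 of these receptors in each tissue had an unadjusted p under 0.05. These were Il1rl1, the interleukin-33 receptor, in blood (log2 fold change -1.65, SE 0.73, adjusted p = 0.135) and Il1rl2, the interleukin-36 receptor, in the spleen (2.02, SE 0.80, adjusted p = 0.189). Il1rl2 was the only receptor called between the tissues, higher in intact blood (8.70, 6.32 and 11.2 CPM) than in intact spleen (0.715, 1.27 and 1.02 CPM, log2 fold change 3.12, SE 0.83, adjusted p = 0.0450). In that comparison 3.86% of all features were called higher in blood. Il1rapl1 had 0 counts in all libraries and Il1rapl2 had 1 count in all 12 together.

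Among 13 genes of precursor processing and release, 6 were called higher after resection in blood and 0 lower, beside 7.80% and 6.11% of all features, with a median log2 fold change of 1.12 against -0.10 over all features. Nlrp3, the inflammasome sensor, went from 48.3, 35.1 and 10.9 CPM to 304, 668 and 729 CPM (log2 fold change 4.17, SE 0.61, adjusted p = 0.00218), and its adaptor Pycard from 14.5, 16.1 and 24.5 CPM to 55.0, 62.6 and 77.2 CPM (1.82, SE 0.35, adjusted p = 0.00631). Casp4 (log2 fold change 1.80, SE 0.50, adjusted p = 0.0300) and the protease Ctss (1.12, SE 0.30, adjusted p = 0.0242) were also called. So were the neutrophil proteases Prtn3 (5.00, SE 0.66, adjusted p = 0.00150) and Elane (2.96, SE 0.82, adjusted p = 0.0289), which can cut interleukin-1 precursors outside cells, and Elane is also one of the 10 neutrophil markers. Prtn3 had 1.73, 1.21 and 1.49 CPM in intact and 45.1, 54.4 and 42.5 CPM in resected blood. Elane was low, at 0.578, 0.206 and 0.306 CPM and then at 3.94, 2.21 and 2.36 CPM. Neither was highest in library 3 of resected blood. Casp1, which matures interleukin-1β, was not called (34.6 ± 1.21 CPM in resected against 21.8 ± 11.5 CPM in intact blood, SD, n = 3, log2 fold change 0.66, adjusted p = 0.188), nor was the pore-forming Gsdmd (0.61, adjusted p = 0.110). In the spleen 1 of the 13 was called, Prtn3 (log2 fold change 3.44, SE 0.62, adjusted p = 0.0345), with a list median of 0.15. Between the tissues 0 of the 13 were called in intact mice. At an unadjusted p under 0.05 there were 0 higher and 2 lower, beside 5087 of all 20135 features in either direction. After resection Nlrp3 (log2 fold change 2.38), Pycard (1.68) and Prtn3 (1.95) were called higher in blood, beside 6.28% of all features.

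Of 21 genes of the signalling chain below the receptor, 5 were called higher in resected blood and 0 lower, beside 7.80% and 6.11% of all features, with a list median of 0.32 against -0.10 over all features. They were Nfkbiz (log2 fold change 3.16, SE 0.47, adjusted p = 0.00241), which encodes a nuclear regulator needed for secondary response genes, Nfkbia (2.74, SE 0.33, adjusted p = 0.00112), the NF-kB inhibitor, the kinase Irak2 (1.99, SE 0.43, adjusted p = 0.0108), its inhibitory relative Irak3 (2.70, SE 0.71, adjusted p = 0.0241) and the adaptor Myd88 (1.82, SE 0.38, adjusted p = 0.00974). Irak3, like Il1r2 and Il1rn, was highest in library 3 of resected blood, with 40.1, 62.8 and 277 CPM in the resected libraries. In the spleen Nfkbia alone was called higher, beside 0.780% of all features, at 189, 213 and 270 CPM in intact and 795, 576 and 1322 CPM in resected libraries (log2 fold change 2.00, SE 0.32, adjusted p = 0.0253), with a list median of 0.11 against 0.05 over all features. Blood was called higher than spleen for Tnfaip3 (log2 fold change 1.67), another inhibitor of NF-kB, in intact mice and for Nfkbia (1.19) after resection.

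Finally, the genes whose log2 CPM ran most closely with a member were sought among 10387 named features with a mean of at least 5 CPM. For Il1b these were Ptgs2 (r = 0.98), which encodes the inducible cyclooxygenase, Acta2 (0.96), Cd38 (0.96), Pfn1 (0.96) and Kcnj2 (0.95). For Il1rn they were Slc7a11 (r = 0.98), the cystine transporter, Samsn1 (0.98), Rab7 (0.98), Pgs1 (0.97) and Rnf149 (0.97). Pearson's r was taken over the 12 libraries, which fall into 4 groups and share depth and cell make-up, so these values are descriptions only.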

How the data were processed

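CD115+ cells of blood and spleen were sequenced from DNBSEQ strand-specific mRNA libraries per the labels, whereas the methods of the paper name an Illumina instrument. For each library the authors deposited a table of estimated counts, unscaled. The submitters' processing notes name STAR and GRCm39. The counting tool and its use of strand were not given in the sources used here. Each table had 67088 entries. Accessions (25340 of 40274 matched) were summed into symbols through RefSeq of GRCm38.p6, which was also used for promoters. The 2558 unassigned entries, 1.75% to 4.33% of a library, were left out. Sums were rounded to whole numbers.

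Counts were filtered (filterByExpr, 20135 features left), scaled by TMM and fitted over all 12 libraries with edgeR 4.0.16 (robust glmQLFit, glmQLFTest) in R 4.3.3, without covariates, with Benjamini-Hochberg adjustment. Calls took an adjusted p under 0.05 together with a log2 fold change beyond 1 in either direction. The SE is the log2 fold change divided by the square root of F. The script was tested on simulated counts, for resection in blood only and with less spread than the common dispersion of these data (0.312). Log2 CPM and ratios used a prior count of 2. Kilobases are unions of GENCODE exons on GRCm38. Limits for counts of 0 (3 counts) cover counting error only. Replicates came from the labels, and p-values measure the spread between libraries, which are pooled samples. No pair of libraries within a group agreed within sampling noise (chi-square over its degrees of freedom from 19.7 up), and each was taken as 1 replicate. This check cannot tell separate pools from separate preparations of the same pool.

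The members and gene lists were chosen with earlier results of these data known. Named genes are the 9 members and, from each list, genes called (up to 6 per comparison, by p) or without counts, and the 5 genes closest to Il1b and Il1rn. Il1rl1, Casp1, Gsdmd, Il33 and the marker genes outside this rule were named after their values were seen. Alternatives were DESeq2 1.42.0, RLE factors, other count filters, a replicate block, entries as deposited, no haemoglobin genes, 2-group fits, no fold-change limit, other prior counts, and each library left out. Leaving out library 3 of both resected or of both blood groups was added after seeing the data.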

Additional observations from a re-analysis of the deposited data

Results flagged for a closer look

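Among the members, Il1b stood out because its libraries moved in opposite directions in the tissues. All 3 resected blood libraries were above all 3 intact ones, and all 3 resected spleen libraries were below all 3 intact ones. Libraries without overlap, in either direction, were common among all features, at 38.4% in blood and 35.1% in the spleen. How many features did so in opposite directions was not counted. The fall of Il1b in the spleen was not called (log2 fold change -1.03, SE 0.62, adjusted p = 0.382 in edgeR). The difference of the resection effects was 4.98 on the log2 scale (SE 0.92), which did not pass in edgeR's quasi-likelihood test (adjusted p = 0.0639). The antisense gene Il1bos had the same signs, with edgeR log2 fold changes of 3.96 in blood (adjusted p = 0.00885) and -1.18 in the spleen (adjusted p = 0.392). Its reads cannot be told apart from those of Il1b, as the use of strand was not given, so its signs are not independent of Il1b. Groups of 3 libraries were too small for a test of outlying samples.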

How the results depend on the processing

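In blood, with 8 members called, 4 were called when only the 2 groups compared were fitted, 5 without library 3 of both blood groups, and 6 to 8 with single libraries left out. With the replicate block 7 members were called in blood, without Il1rap, and no other call of a member changed. Deviations from the group mean correlated at -0.046 to 0.19 between libraries of the same number. The highest values, 0.131 and 0.19, were between resected spleen and resected blood in libraries 2 and 3. The labels do not say whether libraries of the same number share mice, and these correlations cannot decide it. The 1 call in the spleen, Il1a, became 0 without the low-count filter, in the 2-group fit and without library 3 of both resected groups. It became 2 calls, with Il18, by DESeq2 and without library 3 of both blood groups, and single libraries left out gave 0 to 2. The 3 calls between intact tissues became 1 in the 2-group fit and 0 to 3 with single libraries left out. After resection, 2 calls became 4 by DESeq2, with RLE factors, with at least 10 counts in every library and without haemoglobin genes, and 2 to 4 with single libraries left out. The difference of effects, 0 called, gave 5 by DESeq2, 2 with at least 10 counts in every library, and 0 to 1 with single libraries left out. DESeq2 gave no adjusted p for Il1r2, Il1r1 had too few counts for the stricter filter, and a 2-group fit of the difference could not be made. Over all features, calls in blood (2801) were 1590 in the 2-group fit, 1823 without library 3 of both resected groups and 1627 to 2814 with single libraries left out. In the spleen (277) they were 1586 by DESeq2, 101 unfiltered, 489 with the stricter filter, 150 with the block, 38 and 1098 without the pairs of libraries 3, and 1 to 1025 with single libraries left out. Between intact tissues (1480) they were 2653 by DESeq2, 796 in the 2-group fit and 531 to 1494 with single libraries left out. After resection (2648) they were 3729 by DESeq2, 2562 with RLE factors, 1985 with the stricter filter and 2545 without haemoglobin genes. Single libraries left out gave 1450 to 3625 there. For the difference (57) the counts were 1167 by DESeq2, 22 unfiltered, 99 with the stricter filter and 1 with the block. Without library 3 of both resected groups the difference had 34 calls, and with single libraries left out 5 to 93.

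The direction turned for some log2 values that were not called. In the spleen Il1rn was -0.0513 with the replicate block, and Il1rn, Il1r1 and Il1rap were -0.702, -0.0945 and -0.242 without library 3 of both resected groups. With single libraries left out they ranged from -0.694 to 0.894, from -0.0895 to 0.514 and from -0.235 to 0.982. Il1a between intact tissues (-0.02) was 0.0453 by DESeq2, 0.0503 with RLE factors, 0.0345 unfiltered, 0.0715 with the replicate block, 0.0419 with entries as deposited and without library 3 of both resected groups, 0.0975 without haemoglobin genes, and -0.229 to 0.547 with single libraries left out. After resection, blood over spleen was -1.44 for Il1r2, -1.44 for Il1r1 and -0.333 for Il36g without library 3 of both blood groups, and -1.13 for Il1r1 without library 3 of both resected groups. With single libraries left out they ranged from -1.44 to 2.08 for Il1r2, from -1.44 to 1.23 for Il1r1 and from -0.334 to 1.15 for Il36g. Other prior counts and entries as deposited turned no ratio, whereas single libraries left out gave -0.0149 to 1.17 for Il1rn to Il1b in blood and -0.471 to 0.249 for Il18bp to Il18 in the spleen. Depth limits Il1r1 in intact blood and the untested ligands.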
